A study of Mus musculus with 6 samples.

Results

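Chemokines are small secreted proteins that steer migrating blood cells, and their receptors are proteins of the cell surface that signal through inhibitory G proteins. This report concerns 47 mouse genes of that family, 31 ligands and 16 receptors, among 18194 genes measured. A gene was taken if its platform symbol was Ccl, Cxcl, Ccr or Cxcr followed by a number, or Xcl1, Xcr1, Cx3cl1 or Cx3cr1. Ccl5, Cxcl12 and Cxcr4 were left out, and where a gene had several probe sets, the brightest by mean of the 6 arrays represented it. In bone marrow the family is known for holding stem cells in place, for releasing monocytes and neutrophils into blood and for guiding lymphoid progenitors to the thymus. The names follow the spacing of the first cysteines of the protein: CC ligands bind Ccr receptors, and CXC ligands bind Cxcr receptors. The inflammatory ligands, such as Ccl3 and Cxcl2, are switched on within minutes to hours of stimulation, whereas homeostatic ones such as Ccl25 are made steadily by certain tissues.

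The 6 arrays held RNA of marrow cells sorted as lacking lineage markers and carrying cKit and Sca1, a fraction (LSK) of stem cells and early multipotent progenitors. All mice were 6 weeks old and of genotype Hes1 GFP/WT, with GFP on 1 allele of Hes1, a repressor downstream of Notch. The groups were 3 GFP-positive and 3 GFP-negative arrays, so the GFP-negative cells carried the same allele. In each group replicate 1 was female and replicates 2 and 3 were male, and nothing in the labels says that arrays came from separate animals or how many were pooled. Values are log2 intensities, and differences are GFP-positive minus GFP-negative.

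The arrays correlated at 0.925 to 0.951 with one another over all probe sets. The Hes1 transcript itself lay between 7.09 and 7.84 in GFP-positive and between 6.78 and 7.10 in GFP-negative arrays, so the groups overlapped (difference 0.54 ± 0.24, SE, limma adjusted p = 0.78). Of the sort markers, cKit (Kit) was detected on all arrays, with a mean of 10.17 ± 0.43 (SD, n = 3) against 10.59 ± 0.12, while Sca1 was not analysed here. Bulk RNA cannot tell fewer cells of a type from less RNA per cell. By limma with Benjamini-Hochberg adjustment, 0 of 18194 genes passed at an adjusted p under 0.05 in either direction (0% of genes), with 0.0956 as the lowest adjusted p of any gene. Without adjustment, 3.33% of genes were higher and 3.38% lower at p under 0.05. No chemokine or receptor gene therefore passed, and the differences below are descriptions with their errors.

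Ccr2, the receptor that brings monocytes out of the marrow, lay higher in every GFP-positive array, by 2.13 ± 0.55 (SE, n = 3 per group). The macrophage inflammatory protein genes Ccl3, Ccl4 and Ccl9 had lower means in GFP-positive cells, by 2.34, 1.24 and 1.21 on the log2 scale. Only for Ccl9 did the groups not overlap.

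As rough guides to background, Y-linked genes reached 4.69 in female arrays and Xist reached 5.59 in male arrays; probe sets differ in brightness, so these are not thresholds. Of the 31 ligands, 13 lay above the higher guide on all 6 arrays and 20 on at least 1 (77.1% of all genes), while 6 never rose above the lower guide. Of the 16 receptors, 1 (Cx3cr1) lay above the higher guide on all arrays and 8 on at least 1, and 5 stayed under the lower guide throughout. Over all genes 62.3% lay above the higher guide on every array, and 2325 of 18194 never rose above the lower guide. The group difference was within 0.4 of 0 for 22 ligands and 9 receptors, which is 71% and 56.2% of them, against 73.4% of all genes. Medians were 0.08 over the ligands and -0.01 over the receptors, against 0.01 over all genes. At an unadjusted p under 0.05 stood 1 ligand, Ccl9, and 1 receptor, Ccr2. The groups did not overlap for Ccl9, Ccl22 and Ccr2, that is for 3 of 47 members. Over all genes 11.4% did not overlap (5.89% higher and 5.51% lower in GFP-positive arrays), so the members' share was no larger than the background.

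**Figure D1:**
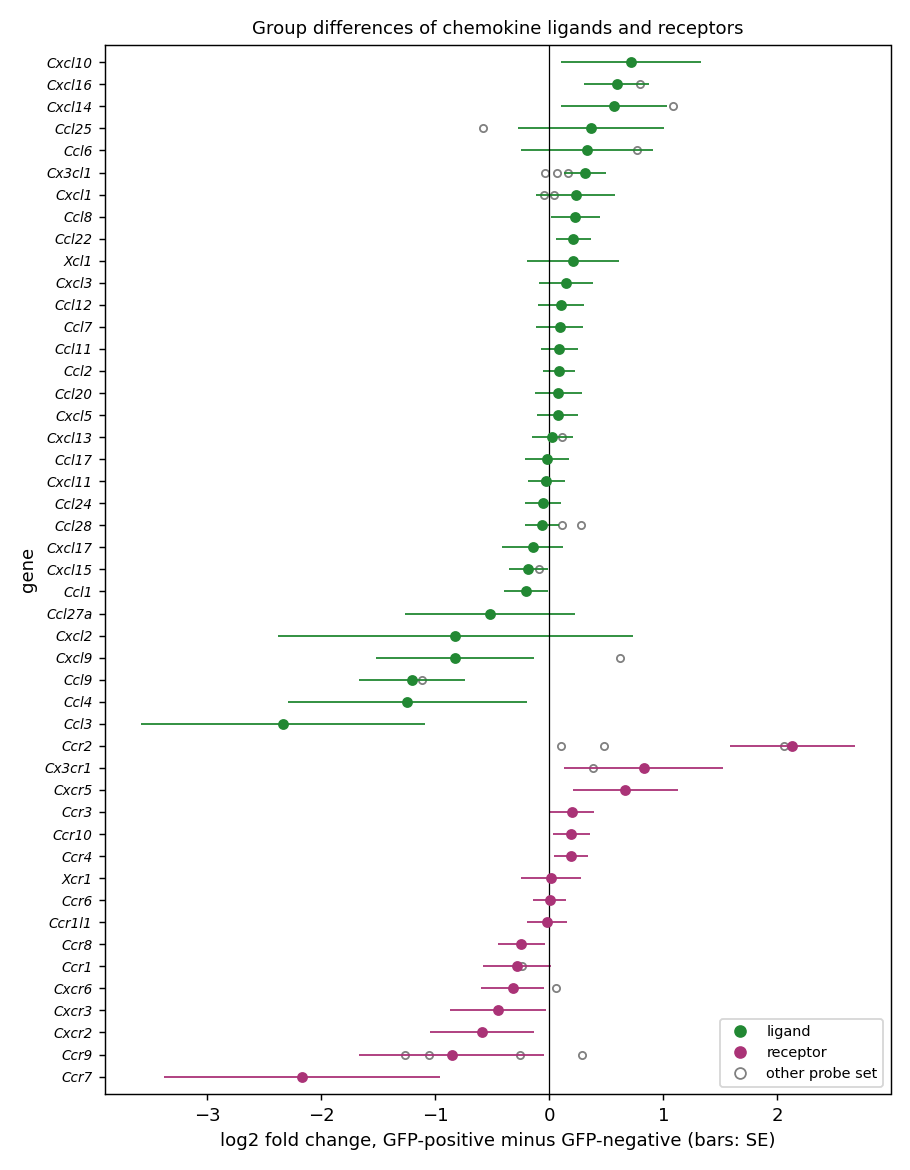
Log2 fold change, GFP-positive minus GFP-negative, of the 31 ligands and 16 receptors, with bars for the SE from limma (n = 3 arrays per group) and open circles for a gene's other probe sets. Ccr2 lies farthest to the right at 2.13, and Ccl3 and Ccr7 farthest to the left at -2.34 and -2.17 with wide errors.

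Promoter sequence is shown for 4 genes on which the description turns: Ccl3 and Cxcl2, which were both highest in the female array of each group, and Ccl9 and Ccr2, whose groups did not overlap. The sequences come from RefSeq (GRCm38.p6) and hold the 250 bases before the annotated start, on the gene's own strand. Ccl3 is at chr11:83649379-83649628 (minus strand), Cxcl2 at chr5:90903649-90903898 (plus), Ccl9 at chr11:83578637-83578886 (minus) and Ccr2 at chr9:124101933-124102182 (plus). Capitals mark matches, on either strand, to the NF-kappaB motif (GGG, 5 bases of any kind, CC), the AP-1 motif TGANTCA and the N box CACNAG, a motif that Hes repressors bind.
Ccl3: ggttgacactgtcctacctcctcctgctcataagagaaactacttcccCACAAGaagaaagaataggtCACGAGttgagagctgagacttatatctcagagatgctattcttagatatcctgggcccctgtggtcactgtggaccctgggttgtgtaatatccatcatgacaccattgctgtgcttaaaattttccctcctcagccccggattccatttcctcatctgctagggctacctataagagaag
Cxcl2: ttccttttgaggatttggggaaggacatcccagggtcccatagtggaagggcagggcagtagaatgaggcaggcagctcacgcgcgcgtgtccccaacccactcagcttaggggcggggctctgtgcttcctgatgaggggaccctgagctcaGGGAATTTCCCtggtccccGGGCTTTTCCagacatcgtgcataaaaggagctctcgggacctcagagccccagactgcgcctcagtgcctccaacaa
Ccl9: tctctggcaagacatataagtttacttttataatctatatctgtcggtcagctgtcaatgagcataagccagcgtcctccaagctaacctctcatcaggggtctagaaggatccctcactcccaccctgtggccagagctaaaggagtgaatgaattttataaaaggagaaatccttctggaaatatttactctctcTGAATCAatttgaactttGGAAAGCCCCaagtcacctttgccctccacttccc
Ccr2: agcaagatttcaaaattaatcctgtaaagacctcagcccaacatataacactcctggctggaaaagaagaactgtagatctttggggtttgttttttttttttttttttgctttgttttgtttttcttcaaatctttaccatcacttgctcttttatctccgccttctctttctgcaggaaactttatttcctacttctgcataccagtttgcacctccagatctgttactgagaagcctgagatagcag
Ccl3 had 2 N boxes, at -202 and -182 from the start. Cxcl2 had 3 NF-kappaB matches, 2 of which overlap in a single palindromic stretch (at -97, -96 and -78). Ccl9 had an AP-1 match at -53 and an NF-kappaB match at -35, and Ccr2 had none of the 3 motifs in this window. Of the 47 members, 35 had a promoter entry, some of them with several starts. The NF-kappaB motif stood in 13 of 25 ligand entries (52%) and 9 of 14 receptor entries (64.3%), against 45.8% of all 32851 promoters of this length. The N box stood in 36% and 42.9%, against 36.7%, and the AP-1 motif in 12% and 14.3%, against 6.75%. These are matches of letters, not binding sites.

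Ccl3 and Ccl4 encode inflammatory CC ligands that attract monocytes and T cells, and Ccl3 is also known to restrain the division of early blood progenitors. In replicate order Ccl3 measured 12.64, 11.04 and 8.92 in GFP-negative cells, against 10.67, 7.39 and 7.54 in GFP-positive cells. The groups overlapped only because GFP-positive replicate 1, the female array, lay above GFP-negative replicate 3. The difference was -2.34 ± 1.25 (SE, limma adjusted p = 0.863), a mean 5.05-fold lower in GFP-positive cells. Ccl4 was at 11.44, 9.57 and 7.81 against 9.81, 7.69 and 7.58, a difference of -1.24 ± 1.05 (limma adjusted p = 0.961). Single arrays moved both: without GFP-negative replicate 1 the differences were -1.45 for Ccl3 and -0.33 for Ccl4. Without GFP-negative replicate 3 or GFP-positive replicate 1 Ccl4 differed by -2.14 or -1.97. In both genes the female array was the highest of its group. Within the female arrays Ccl3 differed by -1.97 and Ccl4 by -1.63. Within the 4 male arrays the groups of both genes did not overlap, with differences of -2.52 ± 0.78 and -1.05 ± 0.65 (SE, limma adjusted p = 0.601 and 0.841), where 36.7% of all genes did not overlap.

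Cxcl2, a neutrophil attractant of the CXC group picked here with its values in view, shared the high female arrays. It was at 8.67 in GFP-negative replicate 1 and 6.10 in GFP-positive replicate 1, and between 3.52 and 3.66 on the 4 male arrays, under both guides. Its group difference was -0.82 ± 1.56 (SE, limma adjusted p = 0.98). Of 16 listed immediate early genes, which sorting and dissociation can induce, 14 were highest in the female array of both groups; Dusp2 and Egr3 were not. The median log2 level of the 16 was 11.35, 10.05 and 9.32 in GFP-negative cells, against 10.78, 9.49 and 8.68 in GFP-positive cells. Of the 16 genes 14 had a negative difference (median -0.31), 0 passed limma, and their part in the levels of Ccl3, Ccl4 and Cxcl2 was not tested. The smallest p-values belonged to Ier3 at -0.87 ± 0.40, Dusp2 at -0.68 ± 0.47 and Btg2 at -0.63 ± 0.47 (SE). Neutrophil markers were mostly high in the female arrays too. The summed intensity of the 9 measured ones was 4960.4, 724 and 1299 in GFP-negative and 8093, 1109 and 1189 in GFP-positive cells. S100a8 and S100a9 were the brightest of the 9 in both female arrays and make up much of the sums there. In GFP-negative cells Mmp8, Mmp9 and Cd177 were not highest in the female array. S100a9, a calcium-binding protein of neutrophils, measured 11.02, 6.47 and 7.57 against 12.28, 8.74 and 9.11 (1.69 ± 1.45, SE). Their part in these ligand levels was not tested either. Across all members 6 of 47 (12.8%) were highest in the female array of both groups, against 14.9% of all genes.

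**Figure D2:**
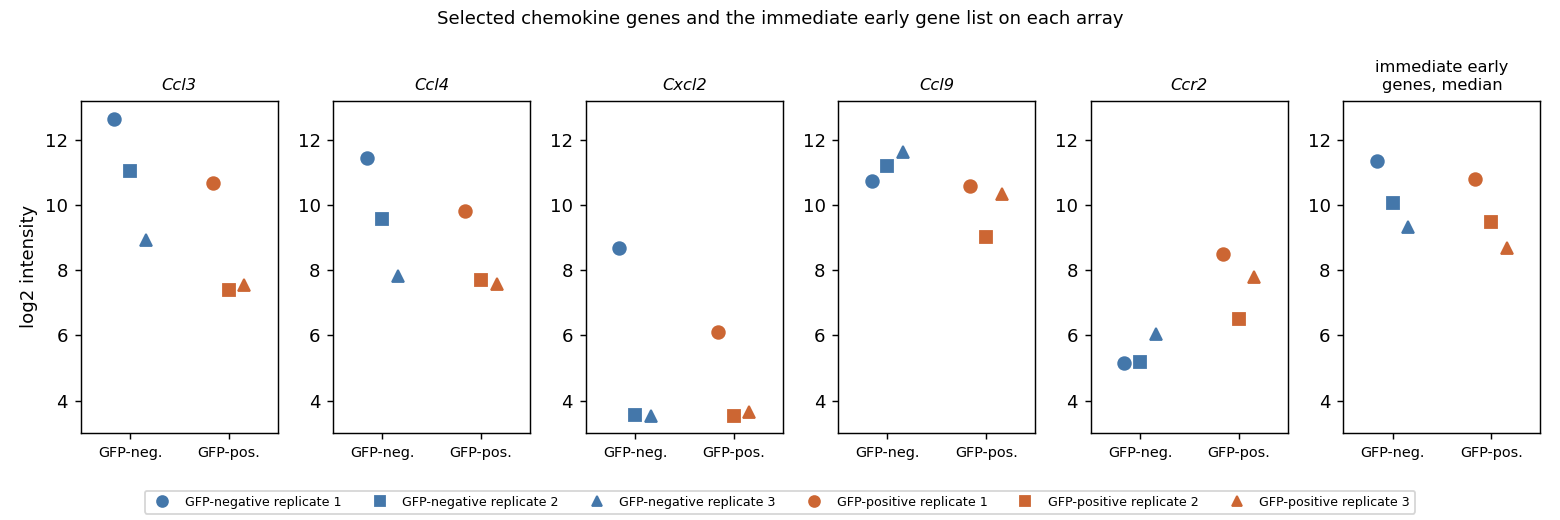
Log2 intensity of Ccl3, Ccl4, Cxcl2, Ccl9 and Ccr2 and the median log2 level of 16 immediate early genes, on each of the 6 arrays, with circles for the female replicate 1 and squares and triangles for the male replicates 2 and 3. Ccl3, Ccl4, Cxcl2 and the immediate early median are highest in the circle of each group, whereas for Ccl9 all 3 GFP-positive points lie under the GFP-negative ones and for Ccr2 all lie above.

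Ccl9, a CC ligand of myeloid cells that binds Ccr1, was at 10.73, 11.21 and 11.62 in GFP-negative and at 10.59, 9.02 and 10.33 in GFP-positive arrays. All GFP-positive arrays lay lower, the female one by a small margin. The difference was -1.21 ± 0.47 (SE, limma adjusted p = 0.726), a mean 2.31-fold lower. Its other probe set differed by -1.12, again without overlap. Within the female arrays the difference was -0.14 and within the male arrays -1.74 ± 0.52 (SE). Without GFP-positive replicate 2 it was -0.73. Of the 10 measured monocyte markers 6 were negative (median -0.14), and of the 16 macrophage markers 3 were (median 1.19). The groups did not overlap for 3 of the monocyte markers, with 2 higher and 1 lower in GFP-positive arrays (Ctss, -0.90). The same held for 7 of the macrophage markers, with 6 higher and 1 lower (Csf1r, -2.20). Over all genes the groups did not overlap for 11.4%, with 5.89% higher and 5.51% lower in GFP-positive arrays. The part of monocytes and macrophages in the Ccl9 difference was not tested. Ccl6, a close relative of Ccl9, was at 6.32, 6.81 and 6.54 against 7.64, 7.49 and 5.55 and did not share its direction (0.33 ± 0.58, SE). Ccr1, the receptor of Ccl3 and Ccl9, lay between 3.19 and 4.27 on all arrays, under the lower guide.

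The other inflammatory CC ligands had small differences. Ccl2, Ccl7 and Ccl12, monocyte attractants, differed by 0.08, 0.09 and 0.10, and Ccl8 by 0.23. Of these Ccl2 lay between 6.55 and 6.75 on all arrays, while Ccl8 and Ccl12 stayed under the lower guide. The eosinophil attractants Ccl11 and Ccl24 differed by 0.09 and -0.05. Ccl22, which attracts T cells through Ccr4, was at 4.75, 4.82 and 4.81 against 4.95, 4.88 and 5.18. Its groups did not overlap, but the difference was 0.21 ± 0.15 (SE, limma adjusted p = 0.942) at a level between the guides. Ccl17, the other ligand of Ccr4, differed by -0.02, and Ccr4 itself lay between 3.87 and 4.26 on all arrays (0.19 ± 0.15, SE).

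Among CXC ligands and the transmembrane chemokines, Cxcl16 and Cx3cl1 had the smallest p-values. Cxcl16, a scavenger of oxidised lipid as well as a ligand, was at 6.95, 7.02 and 7.36 in GFP-negative and at 8.12, 7.16 and 7.83 in GFP-positive arrays. Only GFP-positive replicate 2 lay within the GFP-negative range, and the difference was 0.59 ± 0.29 (SE, limma adjusted p = 0.82), with 0.79 for its other probe set. Cxcr6, the receptor of Cxcl16, was at 4.27, 4.44 and 5.04 against 4.15, 4.02 and 4.62. Cx3cl1, fractalkine, was at 6.37, 6.38 and 6.13 against 6.75, 6.74 and 6.33 (0.31 ± 0.18, SE, limma adjusted p = 0.89), and its 4 probe sets ranged from -0.04 to 0.31.

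Interferon-inducible and stromal CXC ligands varied between single arrays. Cxcl10, an interferon-inducible attractant of T cells, measured 6.74, 5.77 and 4.80 in GFP-negative arrays. It measured 5.55, 7.12 and 6.80 in GFP-positive ones (0.72 ± 0.61, SE), so that the groups overlapped. Cxcl9, of the same group, had 2 probe sets of opposite sign (-0.83 and 0.62). The brighter was highest in GFP-negative replicate 2 (6.94) and the other in GFP-positive replicate 1 (6.32). Their receptor Cxcr3 was at 7.09 in GFP-negative replicate 1 and between 5.47 and 6.01 on the other arrays. The interferon response list had a median of -0.31 over 17 genes, 14 of them negative and 0 past limma, led by p by Irf1 at -0.86 ± 0.23, Irgm1 at -0.60 ± 0.41 and Usp18 at -0.50 ± 0.37 (SE). Cxcl14, a chemokine of stroma and epithelium, stood at 7.28 in GFP-positive replicate 1 and between 5.52 and 5.75 on the other 5 arrays. Stromal markers were high in the same array: the summed intensity of 16 markers was 12770.0 there, 1674 and 1462 in the other GFP-positive arrays and 1327 to 2359.5 in GFP-negative ones. Endothelial markers summed to 24259.5 there and to 4763 to 7147 on the other arrays. Their part in the level of Cxcl14 was not tested.

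**Figure D3:**
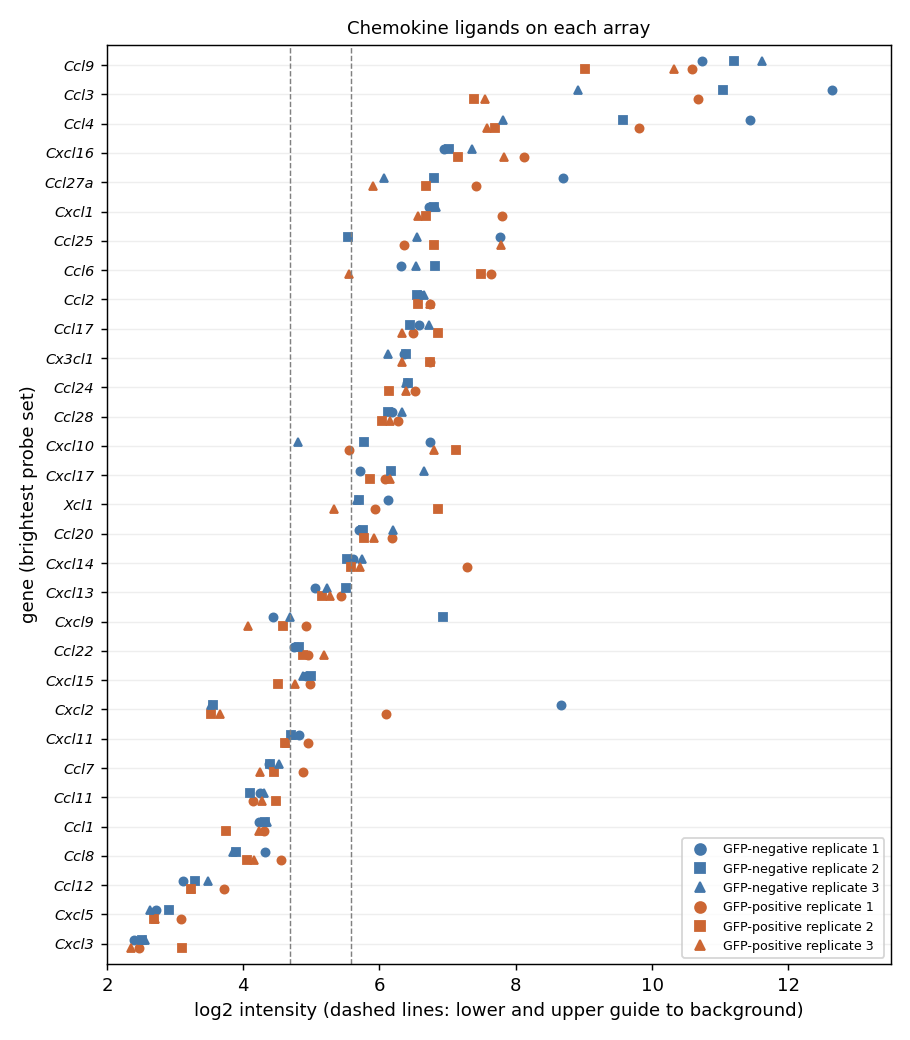
Log2 intensity of the 31 ligands on each array, blue for GFP-negative and orange for GFP-positive, with dashed lines at the guides of 4.69 and 5.59; levels of different genes come from different probe sets and are not to be ranked. Ccl3, Ccl4 and Cxcl2 spread most between arrays, and Ccl9 is separated by group.

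Ccr2 binds Ccl2, Ccl7 and Ccl12 and marks monocytes and some early myeloid and lymphoid progenitors. It was at 5.14, 5.19 and 6.04 in GFP-negative arrays, near the higher guide, and at 8.49, 6.50 and 7.78 in GFP-positive arrays. The groups did not overlap. The mean was 4.38-fold higher in GFP-positive cells (2.13 ± 0.55, SE, limma adjusted p = 0.515), and the mean of its 4 probe sets differed by 1.19. All 4 probe sets had a positive sign, from 0.10 to 2.13, and 3 of them did not overlap. Of those 3, 1 lay between 3.17 and 3.94 on all arrays, under the lower guide. For the brightest probe set the difference was 3.35 within the female arrays and 1.52 ± 0.58 (SE) within the male arrays. Leaving out each array in turn gave 1.68 to 2.68.

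Markers of other cell types were set beside Ccr2. Of 16 macrophage markers 13 had a positive difference (median 1.19), and their summed intensity was 3121 to 8048 in GFP-positive and 2529 to 3898 in GFP-negative arrays. Monocyte markers did not share that direction: 10 of 12 were measured, 4 of them positive (median -0.14), with summed intensities of 5455 to 7286 against 7190.2 to 8076. Among the monocyte markers F13a1 lay with Ccr2, at 6.19, 7.21 and 4.11 against 9.93, 7.97 and 7.55, and was picked with its values in view. Bright macrophage markers went opposite ways. Csf1r, the receptor of the monocyte growth factor, differed by -2.20 ± 0.40 (SE, limma adjusted p = 0.339). Cd68, next in mean level, differed by -0.37 ± 0.32 (SE, limma adjusted p = 0.961). C1qb, a complement gene of macrophages, measured 8.73, 4.66 and 4.70 against 10.78, 11.78 and 8.67 (4.38 ± 1.34, SE, limma adjusted p = 0.592). Its groups overlapped through GFP-negative replicate 1. Of 17 measured T and NK cell markers 11 were positive (median 0.23), with sums of 3938 to 5748 against 4177 to 5558. The part of these cells in the Ccr2 difference was not tested.

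The lymphoid homing receptors Ccr7 and Ccr9, which guide progenitors to the thymus and T cells to lymph nodes and gut, had lower means in GFP-positive cells with wide errors. Ccr7 was at 10.24, 6.91 and 6.15 in GFP-negative and at 4.71, 4.94 and 7.13 in GFP-positive arrays. GFP-negative replicate 1 stood above all others, and the groups overlapped through GFP-positive replicate 3. The difference was -2.17 ± 1.21 (SE, limma adjusted p = 0.872), which was -5.52 within the female arrays, -0.50 ± 0.85 within the male arrays and -0.94 without GFP-negative replicate 1. Ccr9 was at 8.76, 7.73 and 6.79 against 5.49, 8.26 and 6.95 (-0.86 ± 0.81, SE, limma adjusted p = 0.962), with -1.54 to -0.15 when each array was left out in turn. Of its 5 probe sets 4 were negative, ranging from -1.27 to 0.28, and within the male arrays the brightest gave 0.35 ± 0.60 (SE). Ccl25, the ligand of Ccr9, was at 7.76, 5.53 and 6.55 against 6.37, 6.80 and 7.78, and its 2 probe sets had opposite signs (0.37 and -0.58).

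Cx3cr1, the fractalkine receptor of monocytes and macrophages, was at 6.43, 6.75 and 6.10 in GFP-negative and at 7.93, 5.63 and 8.21 in GFP-positive arrays. Of the GFP-positive arrays replicates 1 and 3 lay above and replicate 2 below the GFP-negative range (0.83 ± 0.70, SE, limma adjusted p = 0.961). Leaving out each array in turn gave 0.35 to 1.64. The other Cx3cr1 probe set had another pattern, at 7.05, 5.97 and 5.64 against 7.97, 6.39 and 5.45 (difference 0.38). On it GFP-positive replicate 3 was the lowest array, under the higher guide, and replicate 2 lay within the GFP-negative range. Cxcr2, the neutrophil receptor of Cxcl1 and Cxcl2, was at 7.07, 7.17 and 7.14 against 7.26, 5.49 and 6.87 (-0.59 ± 0.46, SE, limma adjusted p = 0.957), and without GFP-positive replicate 2 the difference was -0.06. Cxcr5, which leads B cells into follicles, stood at 6.25 in that same array and between 4.31 and 4.69 on the other 5 (0.67 ± 0.46, SE, limma adjusted p = 0.935), and without that array the difference was 0.14. Of 14 measured B and plasma cell markers 11 were positive (median 1.39). In replicate order their summed intensity was 5937, 8050 and 12819 in GFP-positive arrays, highest in replicate 3, and 2338 to 4221 in GFP-negative arrays. Their part in the level of Cxcr5 was not tested. The ligands not yet named, Ccl1, Ccl20, Ccl28, Cxcl1, Cxcl3, Cxcl5, Cxcl11, Cxcl13, Cxcl15, Cxcl17 and Xcl1, differed by -0.21 to 0.23, and Ccl27a by -0.52 ± 0.74 (SE). Cxcl11 is a transcribed pseudogene in RefSeq. The remaining receptors Ccr3, Ccr6, Ccr8, Ccr10, Ccr1l1 and Xcr1 differed by 0.20, 0.002, -0.25, 0.19, -0.02 and 0.02. Of these Ccr3, Ccr8 and Ccr1l1 stayed under the lower guide on all arrays.

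**Figure D4:**
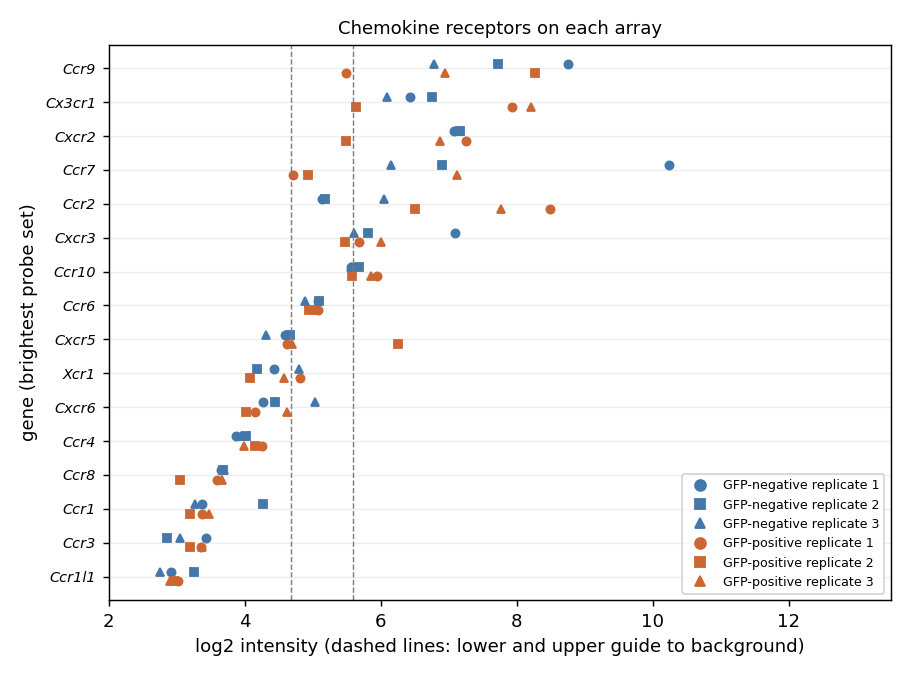
Log2 intensity of the 16 receptors on each array, with the colours, symbols and dashed guides used for the ligands. Ccr2 is separated by group, Ccr7 and Ccr9 spread widely within both groups, and 5 receptors lie left of the lower guide on all arrays.

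Chemokine genes named otherwise, from a list of textbook members, gave the largest difference of the wider family. Pf4, a CXC chemokine stored in platelets, was at 10.80, 9.23 and 7.36 in GFP-negative and at 12.24, 12.22 and 11.98 in GFP-positive arrays. Its groups did not overlap and it differed by 3.02 ± 0.82 (SE, limma adjusted p = 0.528). Megakaryocyte markers, among them Pf4 itself, lay the same way, with 10 of 11 positive (median 0.94) and summed intensities of 7132 to 9174 against 1911 to 3159. Pf4 was the brightest of the 11 in every GFP-positive array and makes up much of these sums. The part of megakaryocytes in the Pf4 difference was not tested. Cklf, a chemokine-like factor, was at 10.42, 10.44 and 10.15 against 10.01, 9.70 and 9.17 (-0.71 ± 0.25, SE, limma adjusted p = 0.667). Ackr1, a decoy receptor of red cells and venous endothelium, stood at 10.40 in GFP-positive replicate 1, the array with high endothelial markers, and between 6.29 and 6.45 elsewhere (1.35 ± 1.11, SE). In all, 7 of the 10 measured genes of this list were positive (median 0.19) and 0 passed limma.

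Signalling and migration genes downstream of chemokine receptors (G proteins, arrestins, receptor kinases, the Rac pathway and Rgs regulators) were mostly bright, and most had a lower mean in GFP-positive cells. Of 38 measured genes 28 were negative and 10 positive, with a median of -0.18 against 0.01 over all genes, and 0 passed limma. Rgs14, which speeds the shutdown of inhibitory G proteins, was at 6.73, 6.29 and 6.39 in GFP-negative and at 7.79, 7.06 and 7.49 in GFP-positive arrays (0.98 ± 0.24, SE, limma adjusted p = 0.504). Plcb2, a phospholipase activated by chemokine receptors in myeloid cells, was at 9.02, 10.02 and 9.72 against 8.84, 8.28 and 8.71 (-0.97 ± 0.31, SE, limma adjusted p = 0.611). In both genes the groups did not overlap, in opposite directions. Rgs2 followed at -0.76 ± 0.40 (SE). NF-kappaB target genes, which include inducers and partners of the inflammatory ligands, had a median of -0.19 over 19 genes, 15 of them negative and 0 past limma. Against that direction Tnfaip2 lay from 8.16 to 9.19 in GFP-negative and from 10.47 to 11.02 in GFP-positive arrays (1.92 ± 0.32, SE, limma adjusted p = 0.287). Birc3 and Sod2 were at -0.72 ± 0.27 and -0.53 ± 0.24 (SE).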

How the data were processed

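Gene expression was measured on 6 Affymetrix arrays, from 5 ng of amplified, biotin-labelled RNA per the labels. The authors deposited 1 linear intensity per probe set, for 45101 probe sets. Per the submitters' processing notes RMA made them; no version or setting of it was given in the sources used here. The method shrinks differences near background. Log2 was taken with no pseudocount, filter or further normalisation (minimum intensity 4.12, array medians 74 to 78.5).

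The platform's annotation gave 34958 probe sets 1 gene symbol, 932 several and 9211 none. Only the former were used, which left out 4 probe sets that name a chemokine among several genes. Of the 47 members 30 had 1 probe set and 17 several, and 2 rested on probe sets of the types that can cross-hybridise with related genes. RefSeq tables (GRCm38.p6) gave promoters and gene neighbours.

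Groups were compared with limma 3.58.1 in R 4.3.3, without covariates, with Benjamini-Hochberg adjustment over 18194 genes. Each p reflects the spread among these 6 arrays alone, which may be technical, and 3 arrays per group limit the precision. The script was tested on simulated data. Members, gene lists and alternatives were chosen with earlier results of these data known. Named were members whose groups did not overlap, the 5 ligands and 5 receptors with the smallest p, the 4 of each with the highest mean, and up to 3 genes of each other list; every other gene in the text was picked with its values in view or to account for all members. Of the lists not given with the results, stem cell, neutrophil, dendritic, and mast cell, basophil and eosinophil markers had medians of -0.02 (8 genes), 0.14 (9), -0.10 (14) and 0.20 (13). Endothelial and stromal markers had medians of 1.32 and 0.72 (16 genes each). The settings varied were averaging over probe sets, leaving out genes below the 40th percentile, an intensity trend, renewed quantile normalisation, median centring, a replicate block, a sex covariate, the male arrays alone and the omission of each array. Plots were made with matplotlib 3.10.9 under Python 3.11.15.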

Additional observations from a re-analysis of the deposited data

How the results depend on the processing

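Of 179 recomputed differences of the named members none passed the threshold. In 56 the difference is the same by construction; of the other 123, 122 kept their direction, and within the male arrays Ccr9 turned from -0.86 to 0.35. By limma 0 genes passed under the other settings, except 1 with genes below the 40th percentile left out and 0 to 5 with 1 array left out (5 without GFP-positive replicate 3), none of them a chemokine or receptor gene. The ligand median was -0.12 within the male arrays, and the receptor median was -0.59 with dim genes left out, where 5 receptors stayed. The number of members whose groups did not overlap was 5 of 47 after renewed quantile normalisation (11.4% of all genes), 20 within the male arrays (36.7% of all genes) and 6 to 13 with 1 array left out (18.7% to 23.6% of all genes). The median of the signalling list was -0.24 to -0.08 with 1 array left out (-0.09 without GFP-negative replicate 1, -0.084 without GFP-positive replicate 3). Between the groups, arrays of the same replicate number share that number and also sex. Deviations from the group means correlated at 0.12, 0.05 and 0.09 between arrays of the same number, each array correlating best with its own number. For replicate 1, the female array of both groups, a shared number cannot be told from shared sex. With the replicate block 0 genes passed, and the unadjusted p was 0.00892 for Ccl3, 0.0319 for Ccl4, 0.0505 for Ccl9 and 0.00916 for Ccr2 (limma). The list of signalling genes and the count of members without overlap were recomputed under these settings by choice after the data were seen. Signal near background limits what can be said of the 11 members that stayed under the lower guide.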

Other observations

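By the order of protein-coding RefSeq genes 25 of 46 placed members lie beside another member and 21 do not, and neighbours did not share 1 direction. Cxcl11, a pseudogene in RefSeq, was not placed, so it does not count as a neighbour. On chromosome 11 Ccl9, Ccl6, Ccl3 and Ccl4 follow one another, with differences of -1.21, 0.33, -2.34 and -1.24. A separate run on that chromosome, Ccl2, Ccl7, Ccl11, Ccl12, Ccl8 and Ccl1, held differences from -0.21 to 0.23. On chromosome 9 Cxcr6, Xcr1, Ccr1, Ccr1l1, Ccr3 and Ccr2 are neighbours, and among them Ccr2 alone differed by more than 0.4. On chromosome 5 Cxcl3, Cxcl15, Cxcl1 and Cxcl2 are neighbours, and of these Cxcl2 alone was high in both female arrays. Cxcl1 stood at 7.80 in GFP-positive replicate 1 and between 6.57 and 6.82 elsewhere, on a probe set that can cross-hybridise with related genes. The Cxcl1 probe set next in brightness lay between 5.07 and 5.31, highest in GFP-negative replicate 1. The dimmest lay between 3.34 and 3.83, highest in GFP-positive replicate 1 but under the lower guide on all arrays. On chromosome 8 Ccl22, Cx3cl1 and Ccl17 are neighbours, at 0.21, 0.31 and -0.02. By chromosome the 13 members on chromosome 11 had a median of 0.09, the 11 on chromosome 9 a median of 0.02 and the 9 on chromosome 5 a median of 0.03.

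Ccl27a, a skin chemokine picked with its values in view, measured 8.70, 6.80 and 6.07 in GFP-negative and 7.41, 6.69 and 5.90 in GFP-positive arrays (-0.52 ± 0.74, SE), highest in the female array of each group like Ccl3 and Ccl4. Its probe set is of a type that can cross-hybridise with related genes. The GFP difference was also compared between the female and the male arrays for all 47 members, and 0 passed limma over all genes.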
